A study of Mus musculus with 15 samples.

Results

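The immunoproteasome and peptide loading genes are 10 genes, Psmb8, Psmb9, Psmb10, Psme1, Psme2, Tap1, Tap2, Tapbp, Tapbpl and Nlrc5, chosen by symbol from the 36265 genes with values. Their transcripts were measured in the substantia nigra, the midbrain region that holds many of the brain's dopamine neurons, of 8 C57Bl/6J mice. Each mouse had received an adeno-associated virus (AAV), a gene transfer vector, in the substantia nigra of 1 side 3 weeks earlier. In 3 mice the AAV carried miR-181, a microRNA, at 1.65e10 vector genomes (AAV-hSYN1-miR-181). Their injected sides gave 3 libraries, and their uninjected sides 3. In the other 5 mice it carried green fluorescent protein (GFP) at 1e10 vector genomes (AAV-hSYN1-GFP). Of these, 4 gave an injected and an uninjected library and mouse 5 an uninjected library only. The promoter in both vectors, that of human synapsin, drives expression in neurons, so the cargo was aimed at neurons while the RNA came from whole tissue. No mouse without any injection was analysed here, and age and sex are not given in the labels.

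The proteasome is the barrel-shaped protease that cuts used proteins into peptides. In immune cells, and in other cells after interferon, the catalytic subunits encoded by Psmb5, Psmb6 and Psmb7 are replaced in new barrels by those of Psmb8, Psmb9 and Psmb10, and the cap made by Psme1 and Psme2 (PA28) can join the barrel. Tap1 and Tap2 form the pump that carries peptides into the endoplasmic reticulum. There Tapbp (tapasin) and Tapbpl help MHC class I molecules to take up and select peptides for display to CD8 T cells. Nlrc5 is a transcriptional coactivator of class I genes and of several partners of this pathway. In healthy brain, class I presentation is known to be low, and microglia and infiltrating leukocytes are among its main sites in inflammation.

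The 15 libraries were polyA-selected and stranded. The miR-181 set was read as 75-base pairs and the GFP set as 50-base pairs, on different sequencers and in separate preparations. The values given below, deposited by the authors, were read as TPM (transcript abundance per length, as a share of the library) divided by a size factor for each library. They are normalized separately in the 2 sets, and sequencing depth cannot be recovered from them and is unknown. Per library, 15022 to 15563 genes had a value of at least 1. Changes below are of log2(value + 0.5), injected minus uninjected, and a gene with a limma adjusted p under 0.05 was called higher or lower. Because vector, dose, sequencer, read length and preparation differ together between the sets, their parts in a difference between the sets cannot be told apart. Markers of dopamine neurons were present in each library, with a summed value of 532 to 1210 on miR-181 injected sides, 829 to 1200 on miR-181 uninjected sides, 1490 to 1810 on GFP injected sides and 1140 to 1900 on GFP uninjected sides. Serotonin neuron markers summed to 37.8 to 92.7 in the miR-181 set and 0.342 to 1.53 in the GFP set. The marker content of the samples thus differed with the set as well, and its part in a difference between the sets was not tested. Pituitary markers stood at 2450 on the injected side and at 50100 on the uninjected side of GFP mouse 1, against at most 18.7 in the other 13 libraries, so the GFP results are also given without both libraries of that mouse.

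Markers of other cells differed between the sides as well. In both sets the sums on the injected sides lay above all those on the uninjected sides for each of 5 immune cell lists and for astrocytes. The summed value of 8 microglia markers ran from 562 to 787 on miR-181 injected sides and 314 to 337 on miR-181 uninjected sides, and from 367 to 442 on GFP injected sides and 229 to 299 on GFP uninjected sides. Microglia live in the brain, while lymphocytes mostly enter it from blood. For 12 markers of T and NK cells the sums ran from 39.9 to 147 with miR-181, against 13.2 to 17.6 on the uninjected sides, and from 25.7 to 29.8 with GFP, against 9.49 to 20.9 on the uninjected sides. For 6 markers of B and plasma cells they ran from 38.6 to 182 with miR-181, against 3.38 to 8.96 on the uninjected sides, and from 9.04 to 50.6 with GFP, against 1.11 to 3.82 on the uninjected sides. For 8 markers of monocytes and border macrophages they ran from 131 to 189 with miR-181, against 28.1 to 41.2 on the uninjected sides, and from 46.9 to 127 with GFP, against 15.2 to 26.8 on the uninjected sides. For 6 dendritic cell markers they ran from 26.2 to 39.4 with miR-181, against 19.1 to 20.2 on the uninjected sides, and from 20.3 to 25.3 with GFP, with a median of 18.6 and each sum under 20.3 on the uninjected sides. Astrocyte sums were higher and neuron sums lower on the miR-181 side, without overlap. For 6 astrocyte markers the sums ran from 1670 to 2010 with miR-181, against 1250 to 1390 on the uninjected sides, and from 1130 to 1300 with GFP, against 956 to 1110 on the uninjected sides. For 6 general neuron markers they ran from 3200 to 3730 with miR-181, below the 3860 to 3960 of the uninjected sides, and from 3880 to 3960 with GFP, against 3880 to 4200 on the uninjected sides. Oligodendrocyte and endothelial sums overlapped between the sides in both sets. None of these markers was at 0 in every library of a group. The tests took markers with a mean of at least 1 over both sides of a set. A marker could thus enter through its injected libraries alone, and the numbers tested differ between the sets. The counts of the 2 sets can therefore not be set against each other. Among the markers tested, microglia markers called higher numbered 7 of 8 with miR-181 and 6 of 8 with GFP. T and NK cell markers called higher numbered 7 of 10 with miR-181 and 0 of 3 with GFP (limma, 2 of 3 at an unadjusted p under 0.05). B and plasma cell markers numbered 3 of 4 with miR-181 and 1 of 2 with GFP. Fewer passed among monocyte and border macrophage markers (2 of 6 with miR-181 and 1 of 6 with GFP, with log2 changes down to -0.25 with miR-181), dendritic cell markers (1 of 3 in each set, and 1 called lower with miR-181) and astrocyte markers (2 of 6 with miR-181 and 1 of 6 with GFP). Of the 6 neuron markers 0 were called in either set by limma (4 with miR-181 and 1 with GFP at an unadjusted p under 0.05). In such bulk samples, more cells of a type and more RNA per cell cannot be told apart, and the part of these cells in the changes below was not tested.

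Of the 10 genes, 5 lie on mouse chromosome 17 (GRCm38). Psmb9 (ENSMUSG00000096727, 34181987 to 34187764, minus strand), Tap1 (ENSMUSG00000037321, 34187553 to 34197225, plus strand), Psmb8 (ENSMUSG00000024338, 34197721 to 34201454, plus strand) and Tap2 (ENSMUSG00000024339, 34203527 to 34216321, plus strand) follow each other within 34335 bases of the MHC class II region, and Tapbp (ENSMUSG00000024308, 33915899 to 33929292, plus strand) ends 252694 bases before them. Psme1 (ENSMUSG00000022216, 55578123 to 55581529, plus strand) and Psme2 (ENSMUSG00000079197, 55587441 to 55591113, minus strand) lie on chromosome 14 with 5911 bases between them. Psmb10 (ENSMUSG00000031897, 105935735 to 105938444) and Nlrc5 (ENSMUSG00000074151, 94434356 to 94527272) lie on chromosome 8, and Tapbpl (ENSMUSG00000038213, 125223933 to 125231860) on chromosome 6. All 10 are protein-coding. The gene models of Psmb9 and Tap1 overlap by 212 bases on opposite strands, and the library kit kept strand, but whether the counting used it is not given in the sources used here. The symbol Psme2 had a second identifier, ENSMUSG00000116285, whose highest value in any library was 1.69 and which was not tested.

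RefSeq start windows, 250 bases before to 50 bases after a RefSeq start on GRCm38.p6, were at hand for 7 of the 10 genes. The windows of Psmb8, Psmb9, Psme1 and Tapbp begin downstream of the gene model starts given above. The sequence before those starts was therefore not searched. The windows of 4 loci are shown because the neighbours Psmb9 and Tap1 were called in both sets, with close log2 changes, while of the neighbours Psme1 and Psme2 only Psme1 was called in the GFP set. The RefSeq start sites of Psmb9 and Tap1 are 226 bases apart on opposite strands, and their windows share 275 bases. The Tap1 window below thus also holds most of the Psmb9 window. Capitals mark motif letters on either strand, written 5′ to 3′ on the strand of the gene.
Tap1, plus strand, chr17:34187306-34187605: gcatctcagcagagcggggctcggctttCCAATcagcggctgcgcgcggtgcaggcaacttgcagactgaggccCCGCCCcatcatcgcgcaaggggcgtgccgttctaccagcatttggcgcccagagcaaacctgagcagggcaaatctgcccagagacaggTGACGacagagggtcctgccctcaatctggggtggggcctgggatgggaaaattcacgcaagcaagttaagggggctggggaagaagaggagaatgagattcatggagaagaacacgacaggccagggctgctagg
Psmb8, plus strand, chr17:34197945-34198244: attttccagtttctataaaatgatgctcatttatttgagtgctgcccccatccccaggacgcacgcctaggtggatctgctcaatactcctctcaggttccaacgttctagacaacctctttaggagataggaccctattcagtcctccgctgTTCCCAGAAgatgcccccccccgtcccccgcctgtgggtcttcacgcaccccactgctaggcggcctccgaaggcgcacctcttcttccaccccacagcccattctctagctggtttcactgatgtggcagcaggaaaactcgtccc
Psme1, plus strand, chr14:55578244-55578543: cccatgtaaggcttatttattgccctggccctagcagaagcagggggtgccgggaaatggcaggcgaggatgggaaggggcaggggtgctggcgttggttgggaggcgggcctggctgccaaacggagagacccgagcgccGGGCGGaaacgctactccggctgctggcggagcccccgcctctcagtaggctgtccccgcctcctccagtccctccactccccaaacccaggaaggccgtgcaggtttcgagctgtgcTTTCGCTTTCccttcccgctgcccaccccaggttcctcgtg
Psme2, minus strand, chr14:55591052-55591351: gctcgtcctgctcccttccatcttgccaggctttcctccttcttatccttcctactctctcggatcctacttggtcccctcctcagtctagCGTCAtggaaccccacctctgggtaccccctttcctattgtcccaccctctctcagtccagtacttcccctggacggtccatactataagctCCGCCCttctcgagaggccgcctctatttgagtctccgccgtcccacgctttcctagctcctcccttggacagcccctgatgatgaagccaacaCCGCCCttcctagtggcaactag

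Of the motifs searched on both strands, the interferon-stimulated response element core GAAANNGAAA occurred among these genes only in the Psme1 window, from base 10 to base 19 after the start. It occurred in 3.44% of all 32851 windows. The letters of a gamma-activated site, TTCNNNGAA, occurred only in the Psmb8 window, from -97 to -89, and in 8.3% of all windows. The NF-kB letters GGGANNNNCC occurred in 0 of 7 genes and in 20.7% of all windows. CCAAT, the NF-Y motif, was found for Psmb9, Tap1 and Tapbp (37.4% of all windows), TGACG, part of the CREB motif, for Psmb9, Psme2 and Tap1 (20.8%), and the GC box GGGCGG for Psmb9, Psme1, Psme2, Tap1 and Tapbp (35.7%). For each motif found for both Psmb9 and Tap1, the matches were the same bases, read from opposite strands. Such a site is named under both genes although it is a single site. The numbers of genes with these motifs can therefore not be set against the shares of all windows. All of these are letter matches in a short window, and no binding was measured.

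The vector of the first set carried miR-181, whose seed, bases 2 to 8, is the same in the 4 mouse family members and sets which messages it can pair with. Which of them the vector encoded is not stated in the labels, and the RefSeq mature sequences are given with the seed in capitals.
mmu-miR-181a-5p: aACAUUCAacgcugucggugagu
mmu-miR-181b-5p: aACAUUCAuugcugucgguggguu
mmu-miR-181c-5p: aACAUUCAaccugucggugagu
mmu-miR-181d-5p: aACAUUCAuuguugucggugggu
In the longest annotated 3′ untranslated region of each gene, letters that pair with bases 2 to 8 (TGAATGT), or with bases 2 to 7 before an A (GAATGTA), were found in 1 of the 10 genes, Tapbpl, against 24.8% of the 14335 tested genes with such a region. The regions of the 10 genes ran from 44 bases for Psme2 to 1197 for Nlrc5. The share over all tested genes was not matched for length, so the 2 cannot be set against each other. The Tapbpl match, with the matched bases in capitals, spans bases 595 to 601 of 733.
Tapbpl site: aactgatattgGAATGTAaaatgagtaaa

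On the side given miR-181, all 10 genes rose relative to the uninjected side of the same mice. The log2 changes ran from 0.75 for Psmb10 to 4.30 for Nlrc5, with a median of 1.80 against 0.00353 over all genes tested, and limma adjusted p from 0.00270 to 0.0312 (Benjamini-Hochberg over 15453 genes). Of all genes tested, 4.39% were called higher. This fit had no mouse term. With the mouse as a replicate block all 10 genes remained called (limma adjusted p from 0.0094 to 0.046). In each of the 10 genes every injected library stood above every uninjected library, which held for 16% of all genes tested. Psmb8, Psmb9, Tap1 and Nlrc5 remained called without each library in turn. Without the injected library of mouse 3, or without any 1 of the 3 uninjected libraries, these were the 4 genes called, the other 6 having adjusted p of 0.0554 to 0.126, and without the injected library of mouse 2 Psme1 was not called (adjusted p = 0.0586).

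On the side given GFP, 6 of the 10 rose: Psmb8, Psmb9, Psme1, Tap1, Tap2 and Nlrc5. Of all genes tested, 1.34% were called higher. Psmb10, Psme2, Tapbp and Tapbpl did not pass the test (limma adjusted p from 0.174 to 0.845). The median log2 change of the 10 was 0.637, against 0.00456 over the 15274 genes tested, and 7 of the 10 had every injected library above every uninjected library, which held for 3.29% of all genes tested. Psmb8, Psme1 and Tap1 remained called without each library in turn. Psmb9 was not called without the injected library of mouse 4 (adjusted p = 0.0606) or the uninjected library of mouse 3 (0.0503), Nlrc5 without any 1 of 6 libraries, and Tap2 without any library other than the injected one of mouse 3. Tapbp was called without the uninjected library of mouse 1 (0.0499). Without both libraries of GFP mouse 1, which held the pituitary markers, Psmb8, Psmb9, Psme1 and Tap1 were called, Tap2 had an adjusted p of 0.0909 and Nlrc5 one of 0.109. With the mouse as a replicate block Tap2 was not called (0.09) and Tapbp was (0.0469).

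**Figure D1:**
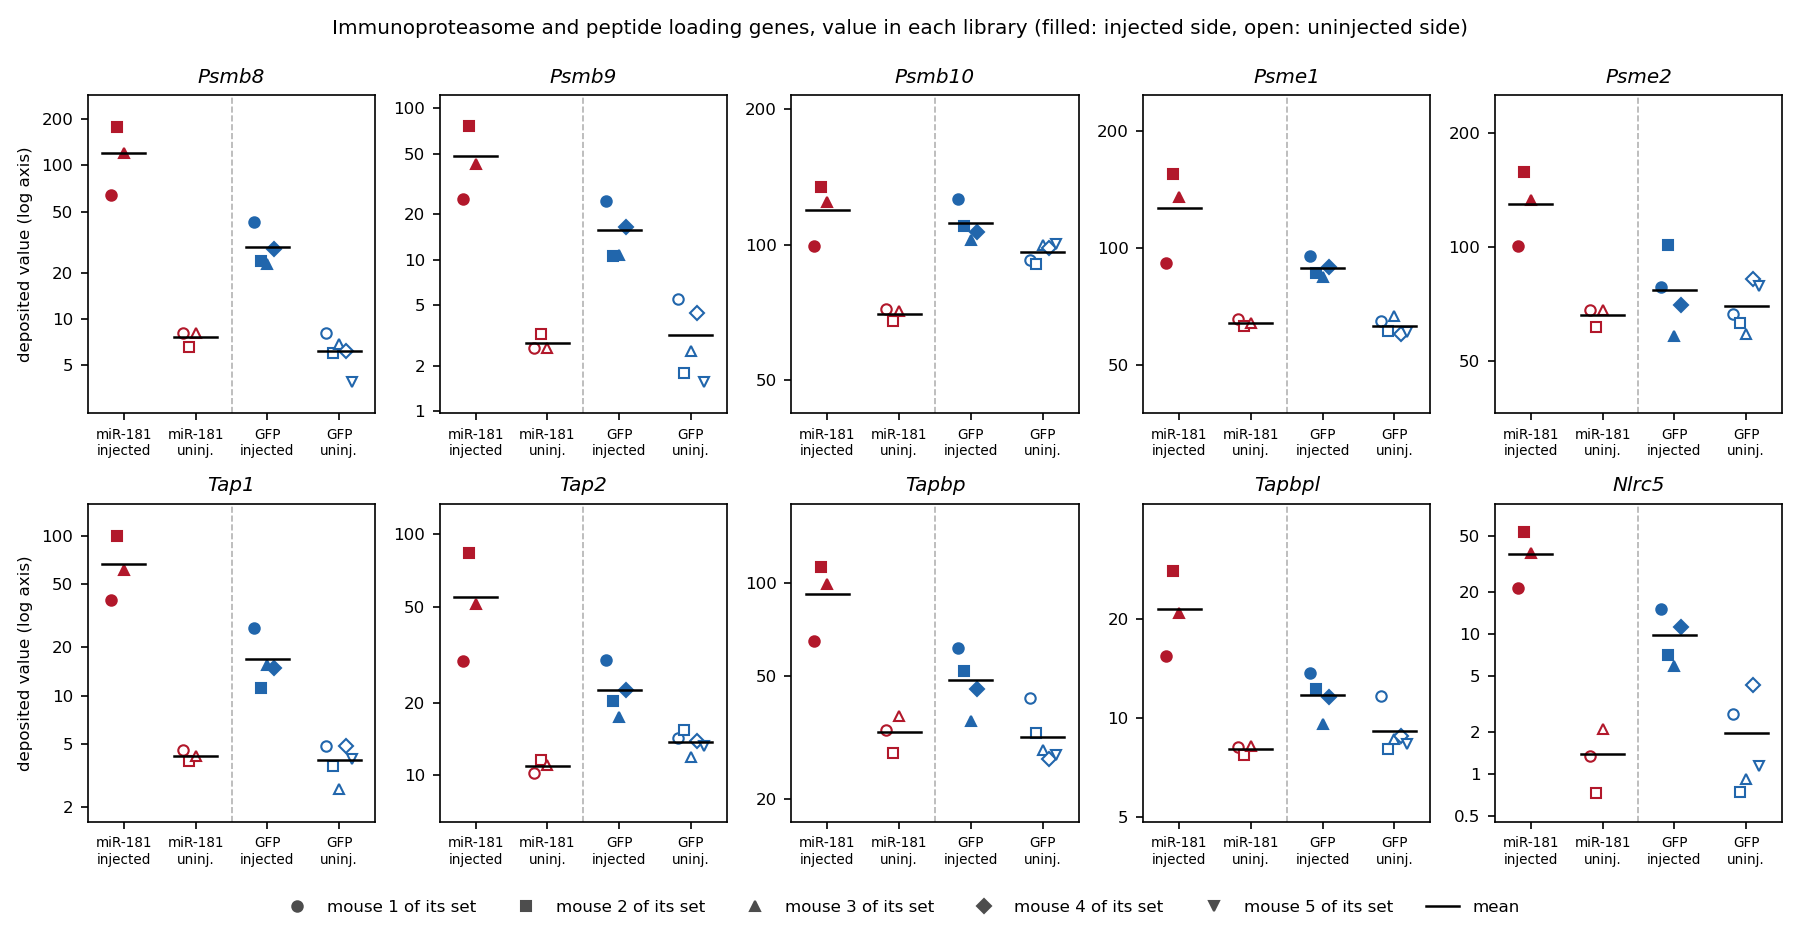
Deposited value of each of the 10 genes in each library on a log axis, for injected then uninjected sides of the miR-181 set (left of the dashed line) and of the GFP set (right of it); symbols are mice and bars are means, and levels are comparable within a set only. In the miR-181 set each injected library lies above each uninjected library in all 10 panels, whereas in the GFP set the sides overlap for Psme2, Tapbp and Tapbpl.

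Nlrc5, the coactivator of class I transcription, had the lowest level of the 10 on the uninjected sides in both sets and the largest log2 change with miR-181. With GFP its log2 change was about that of Psmb9 and Psmb8, and their order changed with the pseudocount and with the libraries left out. Its value was 21.4, 53.2 and 37.8 on the injected sides of miR-181 mice 1, 2 and 3, against 1.35, 0.732 and 2.09 on their uninjected sides, so that log2(value + 0.5) differed by 4.30 ± 0.38 (SE, n = 3 per side; limma adjusted p = 0.00319). Its value was 15.2, 7.07, 5.89 and 11.3 on the injected sides of GFP mice 1 to 4, against 2.69, 0.749, 0.917, 4.33 and 1.14 on the uninjected sides of GFP mice 1 to 5 (log2 2.19 ± 0.42, limma adjusted p = 0.0338, n = 4 and 5). The sides did not overlap in either set, and in the GFP set mouse 4, with the highest uninjected level, had the smallest change of its set, 1.29. Rfx5, a subunit of the RFX complex with which Nlrc5 works on class I promoters, stood at 22.7 ± 1.59 on miR-181 injected sides and 23 ± 2.11 on miR-181 uninjected sides (SD, n = 3 each), and at 22.3 ± 2.95 on GFP injected sides (n = 4) and 21.3 ± 1.31 on GFP uninjected sides (n = 5). Among the 8 RFX, NF-Y and CREB family genes listed, 0 passed the adjusted test in either set, while 2 had an unadjusted limma p under 0.05 with miR-181 (Atf1 and Nfya) and 1 with GFP (Nfyc).

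Psmb8, which encodes the inducible catalytic subunit that takes the place of Psmb5, rose in both sets. On the injected sides of miR-181 mice 1, 2 and 3 it stood at 63.8, 179 and 121, against 8.16, 6.61 and 8.11 on their uninjected sides, a log2 change of 3.79 ± 0.34 (limma adjusted p = 0.00331). In the GFP set it stood at 43.0, 24.0, 22.7 and 28.6 on injected sides, against 8.09, 6.00, 6.86, 6.19 and 3.91 on uninjected sides (log2 2.15 ± 0.22, limma adjusted p = 0.00104). Each injected library thus exceeded each uninjected one of its set. Psmb9, which takes the place of Psmb6, stood at 25.2, 75.9 and 42.9 with miR-181, against 2.63, 3.24 and 2.60 on the uninjected sides (log2 3.73 ± 0.36, limma adjusted p = 0.00416). GFP injected sides had 24.5, 10.7, 10.7 and 16.5, against 5.52, 1.80, 2.50, 4.44 and 1.55 on the uninjected sides (log2 2.18 ± 0.36, limma adjusted p = 0.0161). GFP mice 1 and 4 were the highest of their set on both sides for Psmb9.

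Psmb10, which takes the place of Psmb7, had the highest uninjected level of the 10 genes and the smallest change of the 10 with miR-181. It stood at 99.1, 134 and 124 on miR-181 injected sides, against 71.8, 67.6 and 71.3 on miR-181 uninjected sides (log2 0.75 ± 0.11, limma adjusted p = 0.0144). In the GFP set it stood at 126, 109.8, 103 and 107 on injected sides, against 92.3, 90.6, 100.0, 98.4 and 100.4 on uninjected sides. The GFP sides did not overlap, yet the difference did not pass the test over all genes (log2 0.20 ± 0.06, limma adjusted p = 0.236).

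The constitutive partners were measured in the same libraries. With miR-181, Psmb5 stood at 179 ± 16.5 on injected sides and 168 ± 11 on uninjected sides, Psmb6 at 226 ± 6.06 on injected and 216 ± 5.56 on uninjected sides, and Psmb7 at 192 ± 4.16 on injected and 187 ± 1.70 on uninjected sides (SD, n = 3 each; limma adjusted p from 0.392 to 0.560). None of the 3 passed the test with GFP either (adjusted p from 0.453 to 0.824). The share of the inducible transcript in each pair, which does not depend on the library's size factor, was therefore compared. For Psmb8 with Psmb5 it was 28.4%, 48.1% and 39.7% on the injected sides of miR-181 mice 1, 2 and 3, against 4.34%, 4.01% and 4.70% on their uninjected sides. For Psmb9 with Psmb6 it was 10.3%, 25.0% and 15.6% on injected sides, against 1.17%, 1.5% and 1.2% on uninjected sides. For Psmb10 with Psmb7 it was 33.7%, 41.6% and 38.9% on injected sides, against 27.9%, 26.6% and 27.4% on uninjected sides. The sides did not overlap for any of the 3 pairs, and the two-sided exact permutation p was 0.1 for each, the smallest that 3 against 3 allows.

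In the GFP set, the Psmb8 share was 17.1%, 10.1%, 10.4% and 12.9% on the injected sides of mice 1 to 4, against 4.08%, 2.98%, 3.77%, 3.09% and 2.19% on the uninjected sides of mice 1 to 5, with means of 12.6% ± 3.24 on injected and 3.22% ± 0.740 on uninjected sides (SD, n = 4 and 5). The Psmb9 share was 8.62%, 3.81%, 4.18% and 6.46% on injected sides, against 2.13%, 0.686%, 1.01%, 1.82% and 0.661% on uninjected sides, with means of 5.77% ± 2.23 on injected and 1.26% ± 0.675 on uninjected sides. For both the sides did not overlap (two-sided exact permutation p = 0.00794, the smallest possible, and 0.0238 after Benjamini-Hochberg adjustment over 6 tests). Over the 4 mice with both sides, the paired differences averaged 9.15 and 4.35 percentage points, and the exact sign-flip p of 0.125 is the smallest that 4 mice allow. The Psmb10 share was 40.8%, 36.1%, 35.4% and 36.2% on injected sides, against 33.5%, 31.8%, 36.4%, 35.8% and 36.6% on uninjected sides, and the sides overlapped (exact permutation p = 0.246).

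**Figure D2:**
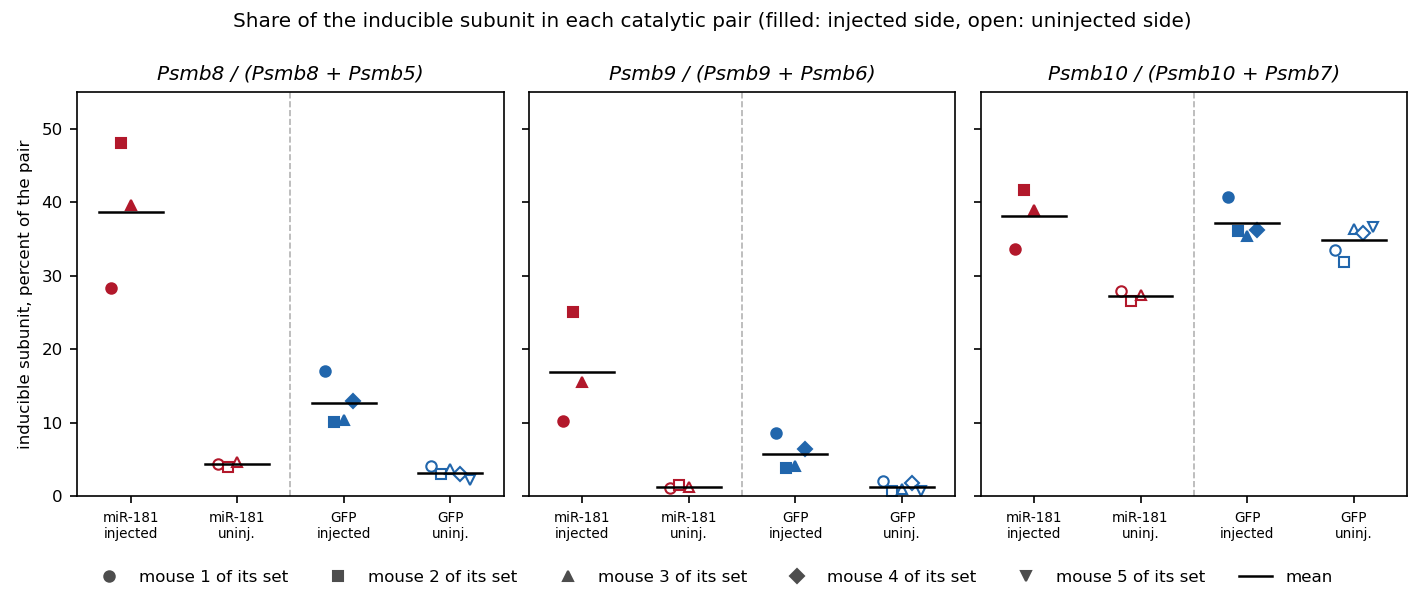
Percent of each catalytic pair's summed value that came from the inducible subunit, per library, for injected then uninjected sides of the miR-181 set (left of the dashed line) and the GFP set (right of it); symbols are mice and bars are means. The Psmb8 share reaches 48.1% on the injected side of miR-181 mouse 2, and the Psmb10 share is at least 26.6% in each library.

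Both PA28 cap genes rose with miR-181, and of the pair Psme1 alone passed the test with GFP; their difference from each other was not tested. Psme1, the alpha subunit, stood at 91.1, 155 and 135 on miR-181 injected sides, against 65.6, 62.9 and 64.0 on miR-181 uninjected sides (log2 0.94 ± 0.18, limma adjusted p = 0.0312). With GFP it stood at 95.3, 85.9, 84.0 and 89.3, against 64.9, 61.2, 66.7, 60.0 and 60.8 on the uninjected sides. The sides did not overlap, and the spread within a side was narrow (log2 0.50 ± 0.05, limma adjusted p = 0.00104). Psme2, the beta subunit, stood at 101, 158 and 133 on miR-181 injected sides, against 68.3, 61.5 and 68.2 on miR-181 uninjected sides (log2 0.95 ± 0.15, limma adjusted p = 0.0197), close to Psme1 in level and change. In the GFP set Psme2 stood at 78.3, 101, 58.2 and 70.2 on injected sides, against 66.7, 63.0, 58.9, 82.3 and 78.9 on uninjected sides. These sides overlapped (log2 0.12 ± 0.15, limma adjusted p = 0.845, 95% interval from -0.22 to 0.46), and without the injected library of GFP mouse 2 the log2 change was -0.0204. Psme2 shares near-identical sequence with Psme2b on chromosome 11 (48945354 to 48946190), whose value was at most 10.6 in any library, and the authors' counting could split reads between them, so the value of Psme2 is uncertain. Summed with Psme2b and the second identifier, Psme2 had a log2 change of 0.99 ± 0.16 with miR-181 (limma adjusted p = 0.0200) and 0.15 ± 0.15 with GFP (adjusted p = 0.796).

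Tap1 and Tap2, which together make the peptide pump, rose with miR-181. With GFP Tap1 rose, while the call of Tap2 did not hold with the mouse as a replicate block (limma adjusted p = 0.09) and held in 4 of 19 alternatives. Tap1 stood at 39.6, 99 and 61.0 on miR-181 injected sides, against 4.55, 3.91 and 4.15 on miR-181 uninjected sides (log2 3.74 ± 0.30, limma adjusted p = 0.00270). GFP injected sides had 26.3, 11.1, 15.6 and 14.8, against 4.82, 3.61, 2.59, 4.81 and 3.99 on the uninjected sides (log2 1.93 ± 0.24, limma adjusted p = 0.00314). Its log2 change was close to that of Psmb9, with which it shares its start region, in both sets. The log2 change of Psmb8, whose start window is separate, was also close to that of Psmb9 (3.79 with miR-181 and 2.15 with GFP). The part of the shared region was not tested. Tap2 stood at 29.8, 83.4 and 51.4 on miR-181 injected sides, against 10.3, 11.6 and 11 on miR-181 uninjected sides (log2 2.15 ± 0.33, limma adjusted p = 0.0168). With GFP it stood at 30.0, 20.3, 17.4 and 22.5, against 14.3, 15.5, 11.9, 13.9 and 13.2 on the uninjected sides (log2 0.67 ± 0.14, limma adjusted p = 0.0487). On the uninjected sides the per-length level of Tap2 was above that of Tap1 in each of the 8 libraries, as on the injected sides of the 4 GFP mice, while on the injected sides of the 3 miR-181 mice Tap1 was above Tap2.

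Tapbp, the bridge between the pump and class I molecules, stood at 64.7, 113 and 99.3 on miR-181 injected sides, against 33.4, 28.1 and 37.1 on miR-181 uninjected sides (log2 1.45 ± 0.21, limma adjusted p = 0.0142). With GFP it stood at 61.6, 52.1, 35.9 and 45.4, against 42.5, 32.8, 28.8, 27.0 and 27.6 on the uninjected sides (log2 0.60 ± 0.17, limma adjusted p = 0.174). The GFP sides overlapped through the uninjected library of mouse 1. Tapbpl, a tapasin relative that edits the peptides of class I molecules, stood at 15.4, 28.0 and 20.8 on miR-181 injected sides, against 8.18, 7.75 and 8.22 on miR-181 uninjected sides (log2 1.32 ± 0.19, limma adjusted p = 0.0154). GFP injected sides had 13.8, 12.3, 9.62 and 11.6, against 11.7, 8.04, 8.67, 8.84 and 8.37 on the uninjected sides (log2 0.36 ± 0.13, limma adjusted p = 0.354). Here too the uninjected library of GFP mouse 1 was the one that overlapped the injected libraries.

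On the injected sides the mice of a set ranked alike over the 10 genes. The share of all genes with the same order was not taken. On the uninjected sides mouse 1 was highest for 5 genes in each set, and miR-181 mouse 2 was lowest for 8. In the miR-181 set mouse 2 had the highest and mouse 1 the lowest injected level of each of the 10 genes, and the median log2 change over the 10 was 1.22 in mouse 1, 2.39 in mouse 2 and 1.79 in mouse 3. T and NK cell markers, with sums of 39.9, 147 and 64.2 in injected libraries 1, 2 and 3, had the same order, and microglia markers (562, 787 and 618) did as well. Dendritic cell (26.2, 39.4 and 28.6), astrocyte (1670, 2010 and 1750) and endothelial sums (275, 359 and 340) had it too. Markers of B and plasma cells (38.6, 163 and 182) and of monocytes and border macrophages (131, 158 and 189) were also lowest in mouse 1 but highest in mouse 3. General neuron (3730, 3200 and 3510) and dopamine neuron sums (1210, 532 and 832) had the reverse order, highest in mouse 1 and lowest in mouse 2. In the GFP set mouse 1 had the highest injected level of 9 genes and mouse 3 the lowest of 8, and the median changes were 0.80, 0.67, 0.43 and 0.71 in mice 1 to 4. Microglia sums on the injected sides of GFP mice 1 to 4, at 442, 373, 367 and 390, were likewise highest in mouse 1 and lowest in mouse 3. Endothelial sums, at 324, 303, 263 and 307, were also highest in mouse 1 and lowest in mouse 3. General neuron sums, at 3960, 3930, 3880 and 3960, were highest in mice 1 and 4 and lowest in mouse 3. Mouse 1 was not highest for T and NK cell markers, with sums of 26.7, 28.9, 25.7 and 29.8. Nor was it for B and plasma cell markers (9.04, 50.6, 11.9 and 17.5) or monocyte and border macrophage markers (63.6, 100.0, 46.9 and 127). Dendritic cell, astrocyte, oligodendrocyte and dopamine neuron sums did not have mouse 1 highest either. All 10 genes were above their own uninjected side in each miR-181 mouse and in GFP mice 1 and 2. In GFP mice 3 and 4 it was 9 of 10, the exception being Psme2. The share of all genes above the uninjected side in a single mouse was not taken, so these counts have no background. Pearson r across libraries between a gene's log2 value and the mean of the other 9 was 0.978 to 0.999 over the 6 miR-181 libraries, and 0.821 to 0.977 over the 9 GFP libraries apart from Psme2, at 0.301. These values include the difference between the sides, and the libraries share their preparation.

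**Figure D3:**
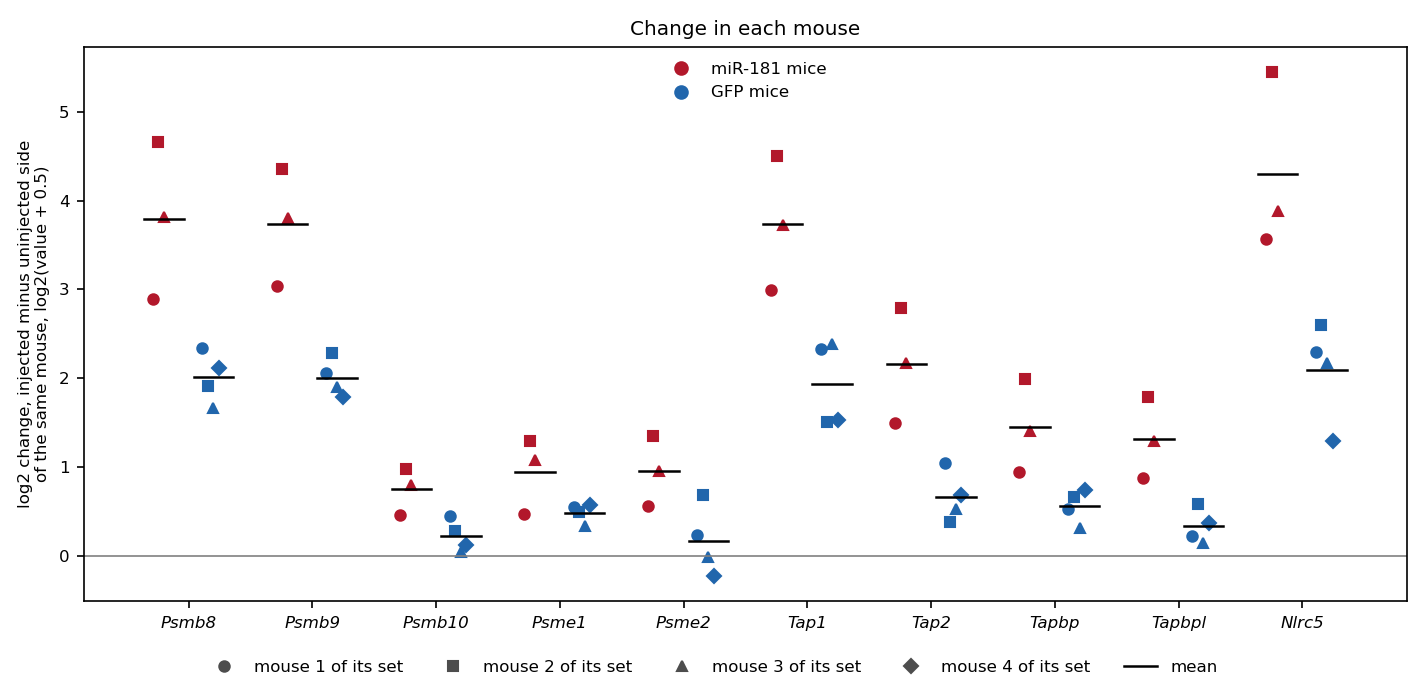
Log2 change of each gene in each mouse, injected minus uninjected side on the log2(value + 0.5) scale, for miR-181 mice (red) and GFP mice (blue); symbols are mice and bars are means. The miR-181 mice lie above the GFP mice for 8 genes, overlap them for Psme1 and Psme2, and mouse 2 is the highest of the miR-181 mice throughout.

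The change in the 3 miR-181 mice was then compared with that in the 4 GFP mice, each mouse serving as its own control. Of the 10 genes, 0 passed the adjusted test (limma adjusted p from 0.0884 to 0.271), in which 0.027% of all genes passed. The median log2 difference of the 10 was 1.24, against 0.00027 over all 14824 genes. At an unadjusted limma p under 0.05, 10 of 10 were higher with miR-181, as were 7.03% of all genes. For 8 of the 10, all but Psme1 and Psme2, each miR-181 mouse lay above each GFP mouse, which held for 6.83% of all genes. Without miR-181 mouse 1, the mouse with the smallest changes, 9 of the 10 passed the adjusted test (limma adjusted p from 0.0131 to 0.0492, Psme2 at 0.0912). Calls rose over all genes in that setting, to 322 of 14824, against 4 with all mice. Without any other single mouse 0 of the 10 passed.

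The log2 difference was largest for Nlrc5, at 2.21 (95% interval 1.13 to 3.29), where the changes averaged 4.30 in miR-181 mice and 2.09 in GFP mice. Tap1 differed by 1.80 (0.95 to 2.65), Psmb8 by 1.78 (0.95 to 2.61) and Psmb9 by 1.73 (1.07 to 2.38). Tap2 averaged 2.15 in miR-181 mice and 0.66 in GFP mice, a difference of 1.5 (0.85 to 2.15). Tapbpl differed by 0.99 (0.50 to 1.47), Tapbp by 0.89 (0.39 to 1.39), Psme2 by 0.79 (0.25 to 1.33) and Psmb10 by 0.53 (0.21 to 0.84). The smallest difference was that of Psme1, at 0.46 (0.065 to 0.85), whose change in miR-181 mouse 1, 0.47, lay within the GFP range of 0.33 to 0.57.

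Of the remaining proteasome genes, 1 rose and 1 fell with miR-181 and 0 were called with GFP. Of 14 constitutive 20S subunits, 0 were called higher in either set and 1 was called lower with miR-181 (5 and 3 had an unadjusted limma p under 0.05 with miR-181 and with GFP). That gene was Psmb1, a non-catalytic beta subunit, at 98.6 ± 5.52 on injected sides and 117 ± 3.24 on uninjected sides (SD, n = 3 each; log2 -0.24 ± 0.05, limma adjusted p = 0.0498). Over these 14 genes the median log2 change was 0.0603 with miR-181 and 0.0309 with GFP. Of 18 subunits of the 19S cap, 0 were called in either set, and 4 with miR-181 and 2 with GFP had an unadjusted limma p under 0.05. Among 8 other activators, inhibitors and assembly factors, Pomp, the chaperone that helps to build new barrels, was the 1 called higher with miR-181. It stood at 228 ± 8.83 on injected sides and 193 ± 1.35 on uninjected sides (log2 0.24 ± 0.04, limma adjusted p = 0.0287), and at 236 ± 12.8 on GFP injected sides (n = 4) and 211 ± 13.2 on GFP uninjected sides (n = 5; adjusted p = 0.327). The other cap genes were not called in either set: with miR-181, Psme3 (PA28 gamma) stood at 84.5 ± 6.25 on injected and 87.4 ± 2.54 on uninjected sides, and Psme4 (PA200) at 26.7 ± 1.04 on injected and 25.3 ± 0.818 on uninjected sides.

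The molecules that receive the peptides rose with them. Of the 9 genes in the list of class I heavy chains and B2m, 9 were called higher with miR-181 and 8 with GFP, with median log2 changes of 3.37 and 2.19. B2m, the light chain, stood at 1947 ± 923 on miR-181 injected sides and 210.0 ± 23.4 on miR-181 uninjected sides (log2 3.10 ± 0.31, limma adjusted p = 0.00505), and at 785 ± 261 on GFP injected sides and 188 ± 25.8 on GFP uninjected sides (log2 2.01 ± 0.18, limma adjusted p = 0.000597). H2-K1 and H2-D1, the classical heavy chains of this strain, rose by 3.42 ± 0.34 and 3.31 ± 0.34 with miR-181 and by 2.19 ± 0.23 and 2.44 ± 0.20 with GFP. The exception with GFP was H2-T22, at 52.4 ± 9.09 on injected and 37.4 ± 3.10 on uninjected sides (adjusted p = 0.0677). Heavy chain genes are near copies of each other, so their single values are uncertain. Of 6 endoplasmic reticulum genes, Erap1, which trims peptides to length, was the 1 called higher with miR-181, at 25.3 ± 7.28 on injected and 8.97 ± 2.40 on uninjected sides (log2 1.44 ± 0.25, limma adjusted p = 0.0257), and 0 were called with GFP by limma, also at an unadjusted p under 0.05. The general folding factors Calr, Canx and Pdia3 were not called in either set, with log2 changes of 0.05 to 0.19 with miR-181.

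Of 15 interferon signalling genes tested, 9 were called higher with miR-181 and 4 with GFP. Irf1, a factor known to act on the shared Psmb9 and Tap1 promoter, rose by 2.72 ± 0.26 with miR-181 and 1.00 ± 0.20 with GFP (limma adjusted p = 0.00398 and 0.0376). The difference of its change between the sets was 1.73 (95% interval 1.21 to 2.24), with an adjusted p of 0.0707. The 6 ligands listed had means under 1 and were not tested. Ifng, which encodes interferon gamma, had values of 0.420, 1.63 and 0.540 on the injected sides of miR-181 mice 1, 2 and 3, against 0.0536, 0 and 0 on their uninjected sides, and was listed at 0 in the 9 GFP libraries. Ifnb1 was listed at 0 in all libraries but the injected one of miR-181 mouse 3, at 0.266.

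**Figure D4:**
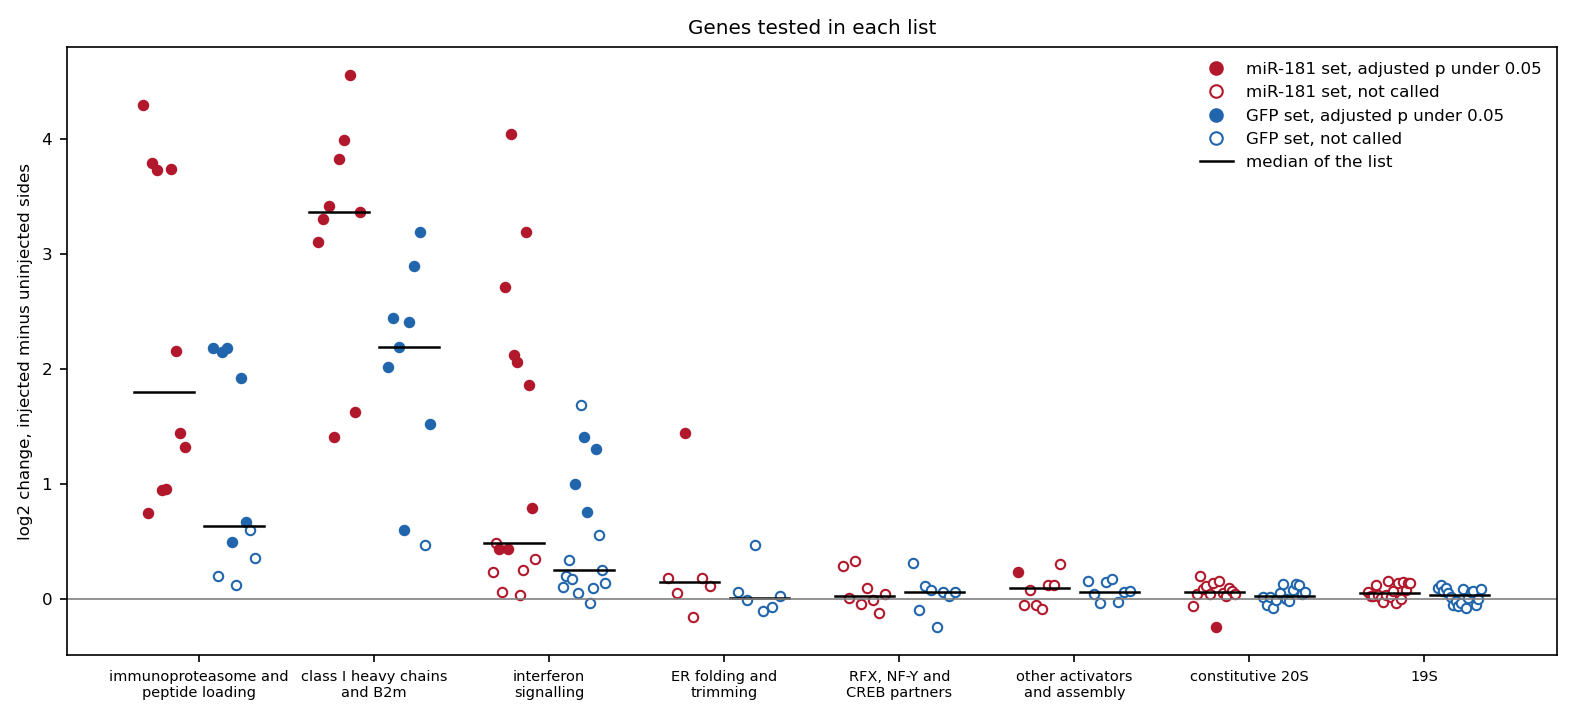
Log2 change of each tested gene in the immunoproteasome and peptide loading group and in 7 related lists, injected minus uninjected sides, for the miR-181 set (red) and the GFP set (blue); filled symbols have a limma adjusted p under 0.05 and bars are medians. The 14 constitutive 20S and 18 19S genes lie between -0.24 and 0.20. With miR-181 the immunoproteasome, peptide loading and class I genes all lie above that range, from 0.75 upward. With GFP Psme2 (0.12) lies within it and Psmb10 (0.20) at its edge.

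By the likeness rule, the 8 genes outside the group whose log2 values followed the mean of the 10 most closely in both sets were C1ra, Fcgr4, H2-K1, Parp14, Ifi30, Ms4a4b, Uba7 and H2-T23. The smaller of the 2 Pearson r, over 6 and 9 libraries, ran from 0.982 to 0.990 among 14814 genes ranked. C1ra, a complement protease gene, averaged 8.64 on miR-181 injected sides and 0.923 on miR-181 uninjected sides, and 2.58 on GFP injected sides and 0.630 on GFP uninjected sides. Fcgr4, an antibody receptor gene of myeloid cells, averaged 16 on miR-181 injected sides and 1.06 on miR-181 uninjected sides. Uba7, which activates the ubiquitin-like protein ISG15, averaged 31.4 on miR-181 injected sides and 4.90 on miR-181 uninjected sides.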

How the data were processed

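RNA of 15 libraries was quantified; the submitters' processing notes name kallisto 0.43.1, sleuth 0.30.0 and the build GRCm38, without giving their roles. The authors deposited 1 value per gene and library, a signal read here as TPM divided by a size factor, since the sums ran from 970505 to 1040288. The miR-181 and GFP tables were normalized separately by the authors, and no depth is kept. Each file had 56305 rows, of which 36660 held values, and 395 repeats were left out. The 10 genes and all lists were chosen with earlier results of these data known. Genes whose mean reached 1 were fitted on the log2(value + 0.5) scale by limma 3.58.1 (R 4.3.3) with a trend in intensity, and p was adjusted by Benjamini-Hochberg (threshold 0.05). A fold change on this scale understates low genes. There were 3 comparisons: injected against uninjected sides in each set, and the per-mouse changes of 3 miR-181 against 4 GFP mice. The comparisons within the sets had no mouse term in the main fits and share no library. The last comparison uses the libraries of both sets. Shares of the inducible subunit were compared by exact permutation (scipy 1.17.1). The labels do not state sex or litter; libraries of a group come from different mice, numbered by the labels. Both sides of a number come from the same animal, so the numbers pair the libraries; deviations of the 2 sides had a correlation of 0.14 to 0.257 for the miR-181 pairs and 0.0177 to 0.192 for the GFP pairs. Named were all 10 genes, their partners fixed in a list, up to 3 genes of each other list by p, of which some are described, and the 8 most alike. Promoter windows and microRNAs are from RefSeq, gene models from GENCODE M21, in which 35936 of 36265 identifiers were found. The tests were checked on simulated data. 1 gene of the interferon signalling list is not reported here.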

Additional observations from a re-analysis of the deposited data

Results flagged for a closer look

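In 36 groups of 4 or 5 values (levels, shares and per-mouse changes) tested for a value far from the others, 2 were flagged, and chance flags about 1 in 20. The share of Psmb10 in its pair with Psmb7 was 40.8% on the injected side of GFP mouse 1, far above the other 3 injected libraries of the set, which lay between 35.4% and 36.2%. Tapbpl stood at 11.7 on the uninjected side of GFP mouse 1, against 8.04 to 8.84 in the other 4 uninjected libraries. That mouse is also the one with pituitary markers in its libraries, and the part of these in either value was not tested.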

How the results depend on the processing

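Other pseudocounts and filters, median centring, quantile normalization, a fit without the trend, the mouse as a replicate block and each library left out in turn were tried. With miR-181 the 10 called genes became 6 with no filter on low values and 4 without both libraries of miR-181 mouse 2 (chosen after seeing the data, as was summing Psme2 with its near copies), and 4 to 10 with a library left out; without the trend they became 8 (Psme1 and Psme2 lost). With GFP the 6 called became 4 with no filter or without the trend (Tap2 and Nlrc5 lost), 5 with a pseudocount of 1, quantile normalization or median centring (Tap2 lost) and 3 to 6 with a library left out, and for the difference the 0 called became 0 to 9 with a mouse left out. Under the replicate block the GFP count stayed at 6 and all GFP calls fell to 124, against 206; the paired share differences with GFP were 9.15 and 4.35 percentage points (exact sign-flip p = 0.125), and the block changed no other call but those of Tap2 and Tapbp. Without the block 0 of the 10 passed for the difference too. Psme2 with GFP ran from -0.0204 to 0.25 with a library left out. All genes called numbered 908 with miR-181, and 107 to 1924 under the alternatives, 206 with GFP (108 to 255) and 4 for the difference (1 to 322). Median centring lowered the share of higher calls with miR-181 to 57.5%, against 74.7%. Some settings also had fewer libraries or more genes tested, and the cause of these changes was not tested. Depth cannot be recovered from these values, so no counting error is given.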
